A study of Mus musculus with 27 samples.

Results

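This section describes 10 genes of the amino acid stress response in immortalized mouse embryonic fibroblasts (iMEFs) that carry a conditional *Setdb1* knockout (cKO). The 10 genes, *Atf4*, *Ddit3*, *Trib3*, *Asns*, *Psat1*, *Phgdh*, *Mthfd2*, *Slc7a11*, *Chac1* and *Ddit4*, were taken by name, with no threshold on any value. They were 10 of 21646 genes with a value in all 3 experiments of the series. Their RNA was read by RNA sequencing (RNA-seq) in 27 libraries, as FPKM (fragments normalized to transcript length and to the mapped fragments of the library), a level per length.

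When amino acids run short, the kinase Gcn2 (*Eif2ak4*) phosphorylates the translation factor eIF2α, and ER stress does so through Perk (*Eif2ak3*). General translation then falls while the messenger RNA of the bZIP transcription factor Atf4 is translated more, and Atf4 with its partners raises genes for amino acid synthesis, uptake and tRNA charging. Fibroblasts are known to use this programme both under stress and to supply serine, glycine and asparagine for growth. RNA levels do not show how much Atf4 protein was made, which was not measured in these libraries.

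All groups were *Setdb1* cKO iMEFs, a line regrown from a single cell per the methods, in which 4-hydroxytamoxifen (4OHT) starts the deletion of *Setdb1*, the gene of an H3K9 methyltransferase. In the total RNA experiment (rRNA removed, 3 libraries a group), untreated cells, cells at day 5 (4OHT for the first 4 days) and long-term KO cells (more than 2 weeks by the labels) were compared. In the siRNA experiment (2 libraries a group), cells received control siRNA (siCtrl) or siRNA to *Dnmt1*, the maintenance DNA methyltransferase (siDnmt1), each without or with 4OHT, and were harvested at day 6. In the inhibitor experiment (2 libraries a group), untreated cells (Ctrl) were compared with cells at day 6 of 4OHT, cells given 1 µM PD0325901, a MEK inhibitor, for the last 24 h without or with 4OHT, and cells given 150 nM trichostatin A (TSA), a histone deacetylase inhibitor, for 24 h. All cells grew in medium with added non-essential amino acids and 2-mercaptoethanol. The labels do not say whether replicates were separate cultures, so the p-values measure the spread between libraries, which may be technical.

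Atf4 is known to bind with C/EBP partners at a composite element whose core was searched here as TGATGNAA on either strand. RefSeq promoter windows of 300 bases, ending shortly after each start, were matched for all 10 genes and located in mm9 by exact match. The letters were found in the promoters of *Asns*, *Chac1*, *Trib3* and *Slc7a11*, and not in those of *Atf4*, *Ddit3*, *Psat1*, *Phgdh*, *Mthfd2* and *Ddit4*. Of 27025 genes with a RefSeq promoter, 4.51% held them in at least 1 promoter. The matching stretches are shown because *Trib3*, *Chac1* and *Slc7a11* had the largest changes of the 9 tested genes in long-term KO and *Asns* is the classical target of this response. Each has 100 bases, 5′ to 3′ on the gene's strand, and capitals mark the match. *Slc7a11* held the letters once on each strand, and *Chac1* and *Trib3* on the reverse strand.
Asns, chr6:7643180-7643279 (mm9, minus strand): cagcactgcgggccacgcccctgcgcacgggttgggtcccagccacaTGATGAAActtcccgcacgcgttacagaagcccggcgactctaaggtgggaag
Chac1, chr2:119176748-119176847 (mm9, plus strand): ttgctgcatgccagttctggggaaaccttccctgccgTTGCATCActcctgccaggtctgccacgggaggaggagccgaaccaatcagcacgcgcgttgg
Trib3, chr2:152169767-152169866 (mm9, minus strand): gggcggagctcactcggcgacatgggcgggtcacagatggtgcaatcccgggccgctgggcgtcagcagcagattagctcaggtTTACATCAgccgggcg
Slc7a11, chr3:50247536-50247635 (mm9, minus strand): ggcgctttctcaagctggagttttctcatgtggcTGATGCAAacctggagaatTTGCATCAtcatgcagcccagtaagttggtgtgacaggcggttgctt
In mm9 the regulator genes lie at chr15:80085614-80087975 (*Atf4*), chr10:126727849-126733344 (*Ddit3*) and chr2:152163161-152169796 (*Trib3*). The synthesis genes lie at chr6:7625171-7643182 (*Asns*), chr19:15979613-15999549 (*Psat1*), chr3:98117094-98143892 (*Phgdh*) and chr6:83255698-83267598 (*Mthfd2*), and the others at chr3:50168858-50247535 (*Slc7a11*), chr2:119176978-119180062 (*Chac1*) and chr10:59412423-59414518 (*Ddit4*). The stretches of *Asns* and *Trib3* reach into the first transcribed bases, and those of *Chac1* and *Slc7a11* lie before the start. A match is a description of these letters and does not show that Atf4 binds there, and a promoter without a match says nothing about binding elsewhere.

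The depth implied by the deposited intervals was 37.8 to 43.3 M fragments a library in the total RNA experiment, 14.3 to 16.3 M in the siRNA experiment and 11.4 to 13.2 M in the inhibitor experiment. Of the 8 fibroblast markers, *Col1a1* had a value in 25 and *S100a4* in 21 of the 27 libraries, and the others had one in all. A sum of markers leaves out those without a value in a library, so sums can cover different genes. *Vim* was at 468 to 2202 FPKM and *Col1a2* at 205 to 1476 FPKM, while the blood cell markers *Ptprc*, *Cd3e* and *Adgre1* stayed at or near 0 (at most 0.131 FPKM). *Cd68*, another gene of the blood cell list, was at 2.73 to 66.9 FPKM in the 20 libraries with a value, highest with TSA. The FPKM of *Setdb1* covers the whole gene, exons outside the deleted part included, so it gives no check of the deletion. It was at 5.16 to 5.95 FPKM in untreated cells, 4.16 to 6.52 at day 5 and 6.96 to 7.32 in long-term KO, at 5.00 to 7.58 in the 8 siRNA libraries and at 5.30 to 10.1 in the inhibitor libraries, except for day 6 of 4OHT replicate 1 and both libraries with 4OHT and PD0325901, where it was listed at 0. *Dnmt1* was at 73.4 and 80.5 FPKM in siCtrl and at 10.6 and 12.2 FPKM in siDnmt1. The 2 libraries of 4OHT siCtrl lay far from each other. Between them 7.01% of 9117 genes lay at least 2-fold apart, against 0.779% to 2.47% in the other siRNA groups. This spread does not show which of the 2 is the odd one, and neither was tested as an outlier. Results that rest on them are given with both, without replicate 1 and without replicate 2.

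In the total RNA experiment, 8 of the 9 genes that could be tested were lower at day 5 than in untreated cells and lower again in long-term KO. Each step had an adjusted p under 0.05, at which 17.7% and then 30.7% of all genes were lower. *Trib3*, *Chac1* and *Slc7a11* were also at least 2-fold lower in both steps (background of the steps, 1.25% and 5.83%). *Ddit4* fell and then rose, and *Ddit3* was listed at 0 throughout. Between untreated cells and long-term KO, *Trib3*, which codes for a pseudokinase that feeds back on Atf4, and *Chac1*, for a glutathione-degrading enzyme, fell steeply. *Slc7a11* fell about as steeply, from a mean of 4.03 to 0.400 FPKM. Its rank among the 9 depends on the 0.1 added to each FPKM before the log2. *Trib3* was at 24.5, 25.1 and 24.9 FPKM in untreated cells, at 8.57, 7.96 and 8.16 FPKM at day 5 and at 2.55, 2.58 and 2.12 FPKM in long-term KO. *Chac1* was at 41.5, 43.6 and 42.3 FPKM, then at 18.5, 18.7 and 18.6 FPKM, and then at 4.59, 4.93 and 4.68 FPKM. For *Trib3* and *Chac1* the 3 groups did not overlap, which is a description, since the share of all genes without overlap was not computed.

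At day 5, all 9 of the genes that could be tested were lower at an adjusted p under 0.05 (background, 17.7% of 10105 genes), and 4 of them were called lower, which also requires a fold change of at least 2 (background, 1.25%). The called genes were *Ddit4* (log2 fold change -1.62, standard error 0.08, adjusted p = 3.28e-06), *Trib3* (-1.58, 0.07, 2.16e-06), *Slc7a11* (-1.55, 0.06, 1.06e-06) and *Chac1* (-1.19, 0.04, 2.52e-07). *Atf4* itself, with 303 and 316 FPKM in untreated cells and 157, 169 and 161 FPKM at day 5, fell by 0.93 on the log2 scale (adjusted p = 0.000181). *Asns*, the asparagine synthetase gene, fell by the same 0.93, from 125, 122 and 116 FPKM to 63.1, 67.1 and 59.7 FPKM. *Mthfd2*, a mitochondrial folate enzyme, fell by 0.90, and the serine synthesis genes *Psat1* and *Phgdh* fell the least, by 0.44 and 0.41. *Mthfd2* was at 65.9, 69.2 and 64.0 FPKM in untreated cells, at 39.2, 33.3 and 34.0 FPKM at day 5 and at 24.9 to 25.5 FPKM in long-term KO. *Phgdh*, the first enzyme of serine synthesis, was at 218, 211 and 206 FPKM, at 161, 162 and 154 FPKM and at 100.7, 99.1 and 94.9 FPKM. *Psat1*, the aminotransferase that follows it, was at 394 and 377 FPKM in untreated cells, at 293 and 277 FPKM at day 5 and at 118, 119 and 112.5 FPKM in long-term KO, with 1 library of untreated cells and 1 of day 5 joined with *Cep78*. All of these groups were separate, again with no share over all genes computed. The median of the 9 genes was -0.93, beside 0.00 over all genes tested (0.00110 before rounding). At day 5 the fibroblast marker *Col3a1* was called lower (-1.47) and the epithelial marker *Krt8* called higher (3.79). The sum of the fibroblast markers with a value was 1620 to 1782 FPKM against 2374 to 2391 FPKM in untreated cells. The part of these markers in the result was not tested.

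In long-term KO against untreated cells, 8 of 9 genes were called lower (background, 6.09% of 10081 genes), and all 9 were lower at an adjusted p under 0.05 whatever the fold (background, 29.8%). With 0.1 added to each FPKM, *Trib3* was 9.97-fold lower, *Chac1* 8.81-fold and *Slc7a11*, the cystine transporter gene, 8.27-fold. The added 0.1 understates the fall of *Slc7a11* the most. *Slc7a11* was low throughout this experiment, at 4.16, 4.04 and 3.90 FPKM in untreated cells, 1.33, 1.33 and 1.29 FPKM at day 5 and 0.385, 0.398 and 0.415 FPKM in long-term KO. The other called genes were *Asns* (log2 fold change -1.89), *Psat1* (-1.72), *Atf4* (-1.57), *Mthfd2* (-1.40) and *Phgdh* (-1.11). The value of *Atf4* in long-term KO rests on 1 library at 104 FPKM, because in the other 2 its locus was joined with the neighbouring *Mief1* (119 and 111 FPKM for the joined locus). The median of the 9 genes was -1.72, beside 0.07 over all genes tested. In the same comparison the fibroblast marker *Pdgfrb* (2.80) and the pluripotency gene *Nanog* (1.81) were called higher and *Epcam* (-1.96) lower. In long-term KO the sum of the fibroblast markers with a value was 1814 to 2910 FPKM. The sums were 1.13 to 1.24 FPKM for pluripotent and 0.377 to 0.620 FPKM for epithelial markers, and the part of these markers in the result was not tested.

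Between day 5 and long-term KO, 4 of 9 genes were called lower (background, 5.83% of 10089 genes), and 8 of 9 were lower at an adjusted p under 0.05 (background, 30.7%). *Chac1* changed by -1.95, *Trib3* by -1.73, *Slc7a11* by -1.50 and *Psat1* by -1.29. *Ddit4*, whose product restrains mTORC1, was the exception. It was at 25.2, 26.2 and 25.8 FPKM in untreated cells, at 8.69, 8.54 and 7.71 FPKM at day 5 and at 15.5, 12.9 and 12.9 FPKM in long-term KO. Its second step was thus higher by 0.72 on the log2 scale (adjusted p = 8.47e-05), in a comparison in which 36.2% of all genes were higher at that threshold. These values are for bulk RNA, in which fewer cells of a kind and less RNA per cell cannot be told apart.

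**Figure D1:**
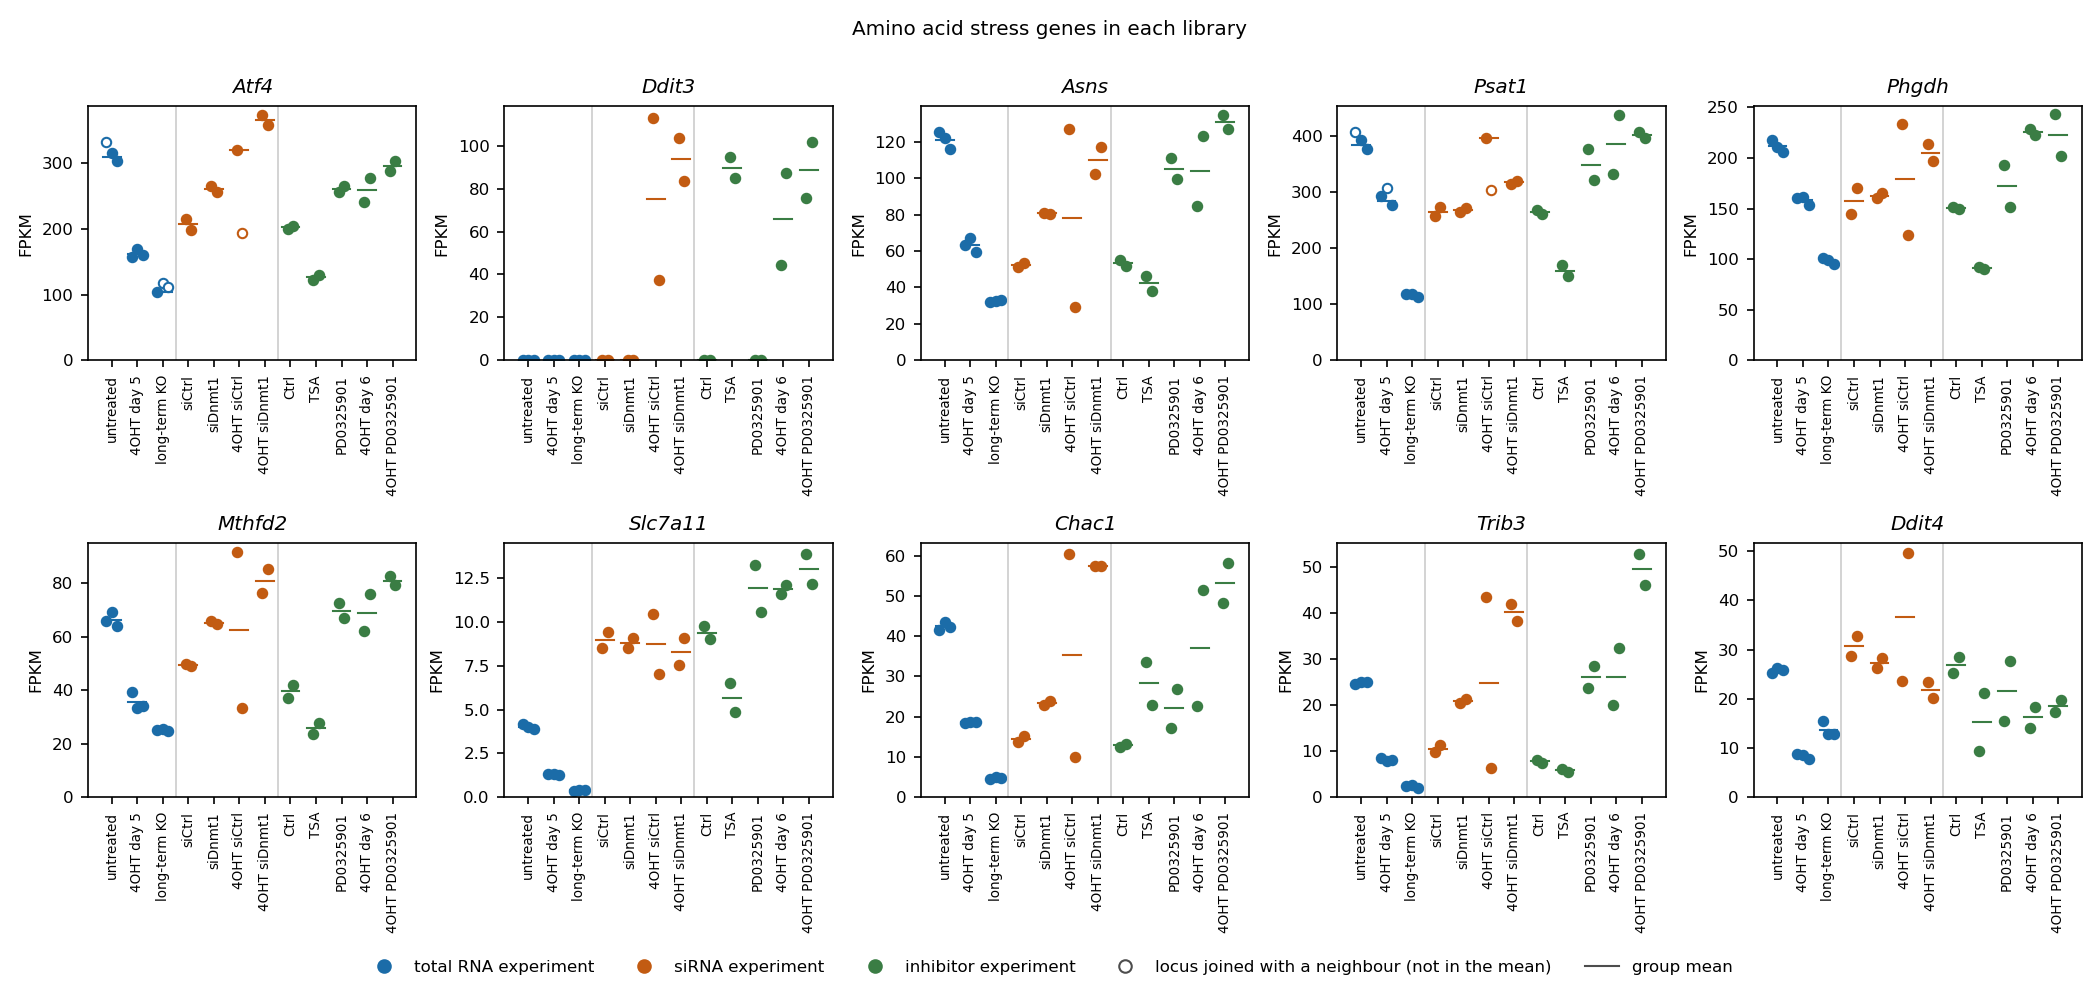
FPKM of each of the 10 genes (y axes, linear, from 0) in each of 27 libraries (points) by group (x axes), with group means as lines, and open points for loci joined with a neighbour. In the total RNA groups the points step down from untreated to long-term KO except for *Ddit4*, and for *Ddit3*, which is listed at 0 there, and the 2 points of 4OHT siCtrl lie far apart, for example at 127 and 29.1 FPKM for *Asns*.

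In the inhibitor experiment, at day 6 of 4OHT, 7 of 9 genes were higher than in Ctrl at an adjusted p under 0.05 (background, 13% of 11558 genes), and *Trib3* and *Chac1* were also at least 2-fold higher (2 of 9, with a background of 5.02%). *Trib3* was at 8.17 and 7.43 FPKM in Ctrl and at 20.0 and 32.3 FPKM at day 6 (log2 fold change 1.69, standard error 0.22, adjusted p = 0.00231). *Chac1* was at 12.5 and 13.2 FPKM in Ctrl and at 22.6 and 51.5 FPKM at day 6 (1.40, 0.38, 0.0321). The groups did not overlap (share over all genes not computed), but the day 6 libraries differed from each other by more than 2-fold. The *Chac1* call was lost when only the groups compared were fitted (adjusted p = 0.0598) and without either Ctrl library or day 6 replicate 2. Of the 8 fibroblast markers, 5 were called lower at day 6. The sum of those with a value was 3959 to 4201 FPKM in Ctrl and 2871 to 2986 FPKM at day 6. Their part in the result was not tested.

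*Asns* rose from 55.2 and 51.8 FPKM to 84.5 and 123 FPKM (log2 fold change 0.93, adjusted p = 0.00876), and *Mthfd2* from 37.2 and 42.0 FPKM to 62.1 and 75.9 FPKM (0.80, 0.00527). *Phgdh* (0.58), *Psat1* (0.53) and *Atf4* (0.35) also passed the adjusted p, below 2-fold. These passes were less firm. That of *Atf4* was lost in 10 alternatives (adjusted p = 0.358 with quantile normalization) and that of *Psat1* in 11, and *Phgdh* lost it without any 1 of the Ctrl and day 6 libraries and *Asns* without either Ctrl library (adjusted p = 0.0506 and 0.0665). *Slc7a11* was at 9.78 and 9.01 FPKM in Ctrl and at 11.6 and 12.1 FPKM at day 6, and did not pass (adjusted p = 0.211). *Ddit4* was at 25.2 and 28.4 FPKM in Ctrl and at 14.2 and 18.4 FPKM at day 6, lower in both libraries, but did not pass (adjusted p = 0.208).

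The 4OHT effects of the 2 experiments were compared as an interaction in 1 fit of 10 libraries, which was added after the values had been seen. The effect at day 5 was lower than that at day 6 by at least 2-fold, at an adjusted p under 0.05, for 6 of 9 genes (background, 4.1% of 10327 genes). *Trib3* had the largest difference of the 9 (-3.28 on the log2 scale, standard error 0.24, adjusted p = 6.97e-05). The differences of the other 5 were *Chac1* -2.59, *Slc7a11* -1.88, *Asns* -1.86, *Mthfd2* -1.70 and *Atf4* -1.29. The controls also lay apart, although each library was normalized on its own. *Trib3* was at 24.5 to 25.1 FPKM in untreated cells and 7.43 to 8.17 FPKM in Ctrl, *Chac1* at 41.5 to 43.6 and 12.5 to 13.2 FPKM, and *Slc7a11* at 3.90 to 4.16 and 9.01 to 9.78 FPKM. Day, library type, read type and culture all differed between these experiments and cannot be told apart.

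**Figure D2:**
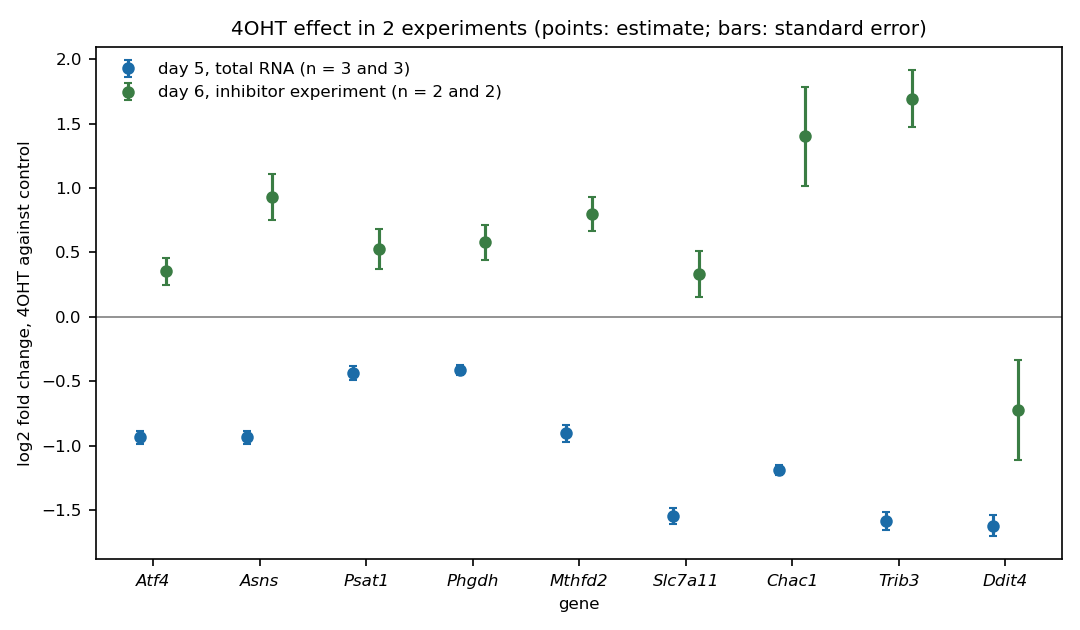
Log2 fold change after 4OHT (y axis) of the 9 genes tested (x axis) at day 5 in the total RNA experiment (blue) and at day 6 in the inhibitor experiment (green), with standard errors as bars. All 9 blue points lie below 0, and 8 green points lie above 0, with *Ddit4* the exception.

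*Ddit3*, which codes for Chop, a bZIP factor downstream of Atf4, could not be tested against most controls. It was listed at 0 in all 9 total RNA libraries and in siCtrl, siDnmt1, Ctrl and PD0325901. It was at 113 and 37.3 FPKM in 4OHT siCtrl, 104 and 83.5 FPKM in 4OHT siDnmt1, 44.6 and 87.1 FPKM at day 6 of 4OHT, 75.8 and 102 FPKM with 4OHT and PD0325901, and 94.5 and 85.0 FPKM with TSA. An exact 0 next to such values can be a failed estimate, so no fold change is given against the groups at 0. *Psph*, which codes for the last enzyme of serine synthesis, was likewise listed at 70.4, 76.3 and 65.5 FPKM in untreated cells and at 0 in all 6 other total RNA libraries.

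In the siRNA experiment, no gene of the 9 was called with siDnmt1 against siCtrl (background, 4.65% of 11001 genes called either way; 1 of 9 genes at an unadjusted p under 0.05, limma). Both siDnmt1 libraries lay above both siCtrl libraries for *Trib3*, *Asns*, *Chac1*, *Mthfd2* and *Atf4*, and below both for *Ddit4*. With 2 libraries a group such a separation can come from spread alone. Its share over all genes was not computed, so these values are a description. *Trib3* was at 9.78 and 11.3 FPKM in siCtrl and at 20.4 and 21.4 FPKM in siDnmt1. *Asns* was at 51.5 and 53.3 FPKM and at 81.0 and 80.3 FPKM, and *Chac1* at 13.8 and 15.2 FPKM and at 22.8 and 23.9 FPKM. *Psat1* and *Slc7a11* differed little between these groups, with *Psat1* at 258 and 274 FPKM in siCtrl and at 266 and 272 FPKM in siDnmt1, and *Slc7a11* at 8.52 and 9.44 FPKM and at 8.51 and 9.10 FPKM. The log2 fold changes were 0.98 for *Trib3*, 0.69 for *Chac1*, 0.62 for *Asns*, 0.40 for *Mthfd2* and 0.34 for *Atf4*, all below 2-fold. Of the 9 genes, 7 were positive and 2 negative. The fit takes its spread from all 8 libraries, among them the 2 of 4OHT siCtrl, which are in neither group compared. The standard error of *Trib3* was 0.79 with all 8, 0.10 without 4OHT siCtrl replicate 1 and 0.10 without its replicate 2. The fold changes stayed as given, below 2-fold, but whether *Trib3*, *Chac1*, *Asns* and *Mthfd2* passed the adjusted p depended on which of those libraries were in the fit. How many of all genes pass the adjusted p in those smaller fits was not computed. With siDnmt1 the keratin genes *Krt8* (7.97) and *Krt18* (7.18), epithelial markers, also rose, and the sum of the 5 epithelial markers was 0.677 to 0.986 FPKM in siCtrl and 55.7 to 56.0 FPKM in siDnmt1. Their part in the result was not tested.

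With 4OHT siCtrl against siCtrl, no gene was called (background, 6.3% of 11000 genes called either way; 2 of 9 at an unadjusted p under 0.05, limma), and the 2 libraries of 4OHT siCtrl disagreed in direction. *Trib3* was at 43.4 FPKM in replicate 1 and at 6.39 FPKM in replicate 2, above and below both siCtrl libraries. *Chac1* was at 60.5 and 10.1 FPKM, *Asns* at 127 and 29.1 FPKM, *Mthfd2* at 91.9 and 33.3 FPKM and *Phgdh* at 234 and 124 FPKM, each again on either side of siCtrl. *Ddit4* was turned around, at 23.7 FPKM in replicate 1 and 49.6 FPKM in replicate 2. *Atf4* (0.63) and *Psat1* (0.58) passed the adjusted p (2 of 9; background, 8.05%), but both rest on replicate 1 alone, since replicate 2 had only joined loci for them, and neither passed with the joined loci used (adjusted p = 0.451 and 0.109).

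Without replicate 2, 3 of 9 genes were called higher in 4OHT siCtrl (background, 5.53% of 10760 genes), namely *Chac1* (log2 fold change 2.06), *Trib3* (2.04) and *Asns* (1.27). The lone library is then assumed to vary as the other groups do. Without replicate 1 instead, *Asns* (-0.84), *Trib3* (-0.71), *Mthfd2* (-0.57), *Chac1* (-0.52), *Slc7a11* (-0.35) and *Phgdh* (-0.34) were lower than in siCtrl. *Ddit4* was higher (0.69), and none of these changes reached 2-fold. The direction of the 4OHT effect on these genes in this experiment was therefore set by the library used.

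With 4OHT siDnmt1 against 4OHT siCtrl, no gene of 10 was called (background, 1.35% of 11054 genes called either way; 1 of 10 at an unadjusted p under 0.05, limma). The 4OHT siDnmt1 libraries lay close to each other, with *Chac1* at 57.3 and 57.5 FPKM, *Trib3* at 42.0 and 38.4 FPKM and *Atf4* at 374 and 358 FPKM. Those levels were near replicate 1 of 4OHT siCtrl and far above replicate 2. Without replicate 1, 5 of 8 genes were called higher (background, 5.22% of 10861 genes), namely *Trib3*, *Chac1*, *Asns*, *Ddit3* and *Mthfd2*, and *Ddit4* was called lower (1 of 8; background, 2.73%). Without replicate 2, 0 of 10 were called (1 of 10 at an unadjusted p under 0.05, limma). The interaction of 4OHT and siDnmt1 gave no called gene among 9 (background, 0.0182% of 10963 genes called either way; 1 of 9 at an unadjusted p under 0.05, limma). Without replicate 1 it gave 3 of 7 called higher, *Chac1*, *Trib3* and *Asns* (background, 3.02% of 10802 genes), and *Ddit4* called lower (1 of 7; background, 1.48%), and without replicate 2 it gave 0 of 9 (5 of 9 at an unadjusted p under 0.05, limma).

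With PD0325901 alone *Trib3* rose from 8.17 and 7.43 FPKM in Ctrl to 23.8 and 28.5 FPKM (log2 fold change 1.73, standard error 0.22, adjusted p = 0.00279), the only gene of 9 called (background, 3.1% of 11525 genes). *Asns*, at 111 and 99.5 FPKM, and *Mthfd2*, at 72.7 and 66.9 FPKM, were also higher than in Ctrl (0.97 and 0.82), which makes 3 of 9 at the adjusted p (background, 6.17%). *Chac1* was at 17.3 and 26.9 FPKM and did not pass (adjusted p = 0.238), nor did *Atf4*, at 256 and 266 FPKM against 199.8 and 205 FPKM (adjusted p = 0.0544). Of the 8 fibroblast markers, 2 were called higher, *Col1a1* (1.36) and *Col1a2* (1.25), and 1 lower, *S100a4* (-1.22). The sum of the fibroblast markers with a value was 4976 to 5460 FPKM against 3959 to 4201 FPKM in Ctrl. The epithelial marker *Epcam* was called lower (-2.20) and the endothelial marker *Kdr* higher (2.01). The part of these markers in the result was not tested.

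With PD0325901 on top of 4OHT, no gene of 10 was called (background, 3.99% of 11607 genes called either way; 1 of 10 at an unadjusted p under 0.05, limma). *Trib3*, at 52.8 and 46.2 FPKM against 20.0 and 32.3 FPKM with 4OHT alone, was higher by 0.96 (adjusted p = 0.0418), as were 4.66% of all genes at that threshold, but this pass was lost in 13 alternatives. *Chac1* was at 48.3 and 58.1 FPKM and overlapped 4OHT alone (22.6 and 51.5 FPKM), although it was higher within each replicate number. The interaction of 4OHT and PD0325901 gave no call among 9 genes (background, 0.637% of 11460 genes called either way), with *Mthfd2*, *Trib3* and *Asns* at an unadjusted p under 0.05 (adjusted p = 0.189, 0.278 and 0.279) and all of them below the sum of the separate effects.

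The calls with TSA did not exceed the background. Of 9 genes 1 was called higher and 0 lower, beside 18.6% and 12.9% of 11556 genes. *Chac1* was called higher, at 33.7 and 22.8 FPKM against 12.5 and 13.2 FPKM in Ctrl (log2 fold change 1.10, standard error 0.38, adjusted p = 0.0386), in a comparison that called 18.6% of 11556 genes higher, and it was the only gene of 9 to rise (background at the adjusted p alone, 31.4%). This call was lost without any 1 of the Ctrl, TSA and 4OHT PD0325901 libraries, although without TSA replicate 2 the change stayed above 2-fold (1.38, adjusted p = 0.0604). *Psat1* (-0.73), *Slc7a11* (-0.73), *Phgdh* (-0.72), *Atf4* (-0.68) and *Mthfd2* (-0.62) were lower at an adjusted p under 0.05 (5 of 9; background, 25.2%), none of them 2-fold. *Phgdh* was at 92.6 and 90.2 FPKM against 152 and 149.7 FPKM in Ctrl, and *Atf4* at 123 and 130.5 FPKM against 199.8 and 205 FPKM. These groups did not overlap, with no share over all genes computed. *Trib3*, at 6.24 and 5.42 FPKM, and *Asns*, at 46.3 and 38.3 FPKM, were below both Ctrl libraries but did not pass (adjusted p = 0.144 and 0.133). Markers of other cell types were also higher with TSA, with *Epcam* (4.77) and the macrophage gene *Cd68* (3.77) called higher. The sum of the 5 epithelial markers was 34.3 to 40.9 FPKM against 1.28 to 1.39 FPKM in Ctrl and that of the 6 blood cell markers measured 60.6 to 67.1 FPKM against 4.27 to 4.90 FPKM, while *Ptprc* stayed at or below 0.131 FPKM. Of the fibroblast markers, 5 of 8 were called lower and 2 higher. Their part in the result was not tested.

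**Figure D3:**
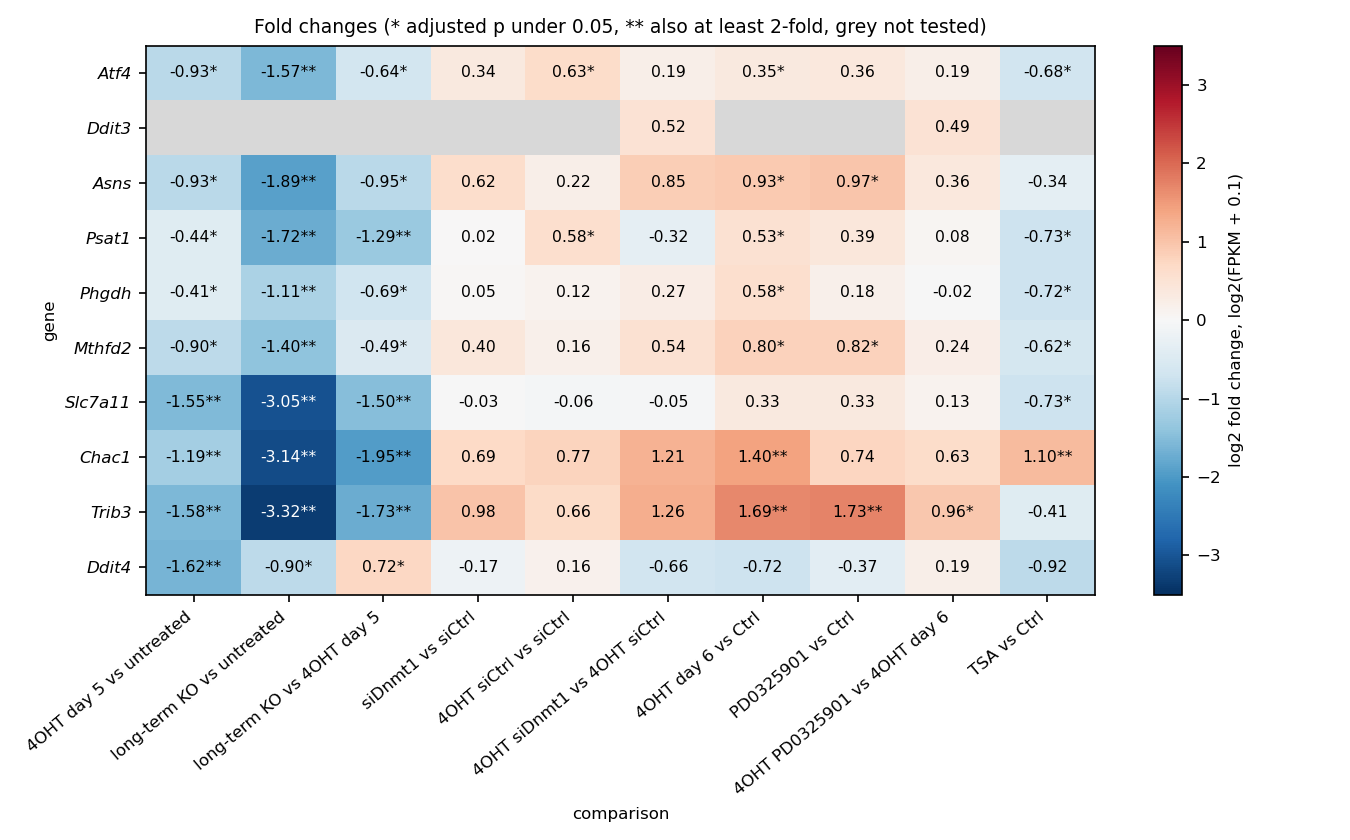
Log2 fold change (colour and number) of the 10 genes (rows) in 10 comparisons (columns), with * for an adjusted p under 0.05, ** where it is also at least 2-fold, and grey where *Ddit3* could not be tested. The 3 total RNA columns are almost all negative, down to -3.32 for *Trib3*, and the columns of 4OHT day 6 and PD0325901 are mostly positive.

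The levels of the 9 genes ranged widely within a library. In untreated cells *Psat1* was the highest (mean 386 FPKM, SD 12.1, n = 2), followed by *Atf4* (310, SD 9.24, n = 2), *Phgdh* (212, SD 5.98, n = 3), *Asns* (121, SD 4.89, n = 3), *Mthfd2* (66.4, SD 2.64, n = 3) and *Chac1* (42.4, SD 1.05, n = 3). *Ddit4* (25.7, SD 0.506, n = 3) and *Trib3* (24.9, SD 0.292, n = 3) differed by little more than their spread, and *Slc7a11* was the lowest (4.03, SD 0.133, n = 3). The log2 profile of each gene over the libraries was set beside the mean profile of the 9 genes, of which it is part, as a description. *Trib3* was closest to that mean (Pearson's r = 0.975, 27 libraries) and *Ddit4* farthest from it (r = 0.441). Outside the 10 genes, the 5 closest of 8713 genes were *Slc7a1*, which codes for a cationic amino acid transporter (r = 0.968), *Tars* for threonyl-tRNA synthetase (0.967), *Eif4ebp1* for a translation repressor (0.950), *Slc7a5* for a subunit of the large neutral amino acid transporter (0.949) and *Gnpnat1* for a hexosamine synthesis enzyme (0.920). The points share experiments, treatments and library types, and no p is given.

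The other genes of the pathway were taken from lists chosen with earlier results of these data known. In long-term KO against untreated cells, where 6.09% of all genes were called lower, 8 of 8 other Atf4 stress targets were called lower, including *Fgf21*, a secreted stress hormone (log2 fold change -4.38), *Stc2* (-3.88) and *Vldlr* (-2.50). *Fgf21* was at 4.46, 3.83 and 3.69 FPKM in untreated cells and at 0.0876, 0.0614 and 0.147 FPKM in long-term KO. Of the amino acid transporters, 6 of 8 were called lower, led by *Slc7a1* (-2.18), *Slc1a4* (-1.82) and *Slc38a1* (-1.66). Of the other amino acid synthesis genes 5 of 7 were called lower, led by *Cth* (-2.88), and of the serine, glycine and one-carbon genes 4 of 6, led by *Shmt1* (-2.42) and *Shmt2* (-1.96). Of the tRNA synthetases 8 of 12 were called lower, led by *Mars* (-1.47), *Tars* (-1.45) and *Yars* (-1.28). The list medians lay between -1.10 and -1.92, beside 0.07 over all genes tested.

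At day 5, where 1.25% of all genes were called lower, the same lists had smaller counts. Called lower were 5 of 8 other Atf4 targets, 3 of 8 transporters, 3 of 7 synthesis genes, 2 of 6 serine and one-carbon genes and 0 of 12 tRNA synthetases, the last with a median of -0.53 and 8 of 12 at an unadjusted p under 0.05 (limma). *Shmt2*, the mitochondrial serine hydroxymethyltransferase, was at 172, 176 and 181 FPKM in untreated cells, at 86.3, 87.5 and 87.4 FPKM at day 5 and at 46.2, 43.6 and 46.0 FPKM in long-term KO. Of the partner bZIP factors, 2 of 5 were called lower in long-term KO, *Atf3* (-1.58) and *Atf5* (-1.13), beside 6.09% of all genes, and 0 of 5 at day 5, beside 1.25% (4 of 5 at an unadjusted p under 0.05, limma).

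The genes upstream of Atf4 did not move as 1 group. *Eif2ak4* did not pass at day 5 or in long-term KO (adjusted p = 0.488 and 0.246). *Eif2ak3* was at 4.87, 4.88 and 4.71 FPKM in untreated cells and at 7.98, 8.29 and 8.04 FPKM in long-term KO, higher by 0.74 (adjusted p = 1.10e-06), below 2-fold. At day 6 of 4OHT it was at 3.54 and 3.82 FPKM against 7.36 and 7.96 FPKM in Ctrl, and was called lower (-1.04, adjusted p = 0.00767). *Ppp1r15a*, whose product directs the dephosphorylation of eIF2α and is itself an Atf4 target, was called lower in long-term KO (-1.26). It was the only gene called of 6 in that list (background, 6.09% called lower). Of the ER chaperones of the unfolded protein response, 0 of 10 were called lower in long-term KO and 1, *Edem1*, was called higher (1.01). Over all genes 6.09% were called lower and 7.78% higher, so these counts are near the background. The list median was -0.11, with 7 of 10 at an unadjusted p under 0.05 in either direction (limma).

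At day 6 of 4OHT, 2 of 8 transporters were called higher (background, 5.02%), *Slc3a2* (1.20) and *Slc7a5* (1.03), which code for the subunits of 1 transporter. Of the other Atf4 targets 1 of 9 was called higher, with a list median of 0.04. None was called of 8 serine, glycine and one-carbon genes (median 0.46) or of 7 other synthesis genes (median 0.19). Of these, 5 of 8 and 2 of 7 had an unadjusted p under 0.05 (limma). The tRNA synthetases had a median of 0.62 with 0 of 12 called (8 of 12 at an unadjusted p under 0.05, limma), and of the 6 partner bZIP factors *Nupr1* was called higher (1.36) and *Cebpb* lower (-1.18). With PD0325901, *Slc7a5* (1.23) and *Slc1a4* (1.11) were called higher of 8 transporters (background, 3.1%), as was the proline synthesis gene *Pycr1* (1.59) of 7 synthesis genes. Of the other Atf4 targets 2 of 9 were called higher. None was called of 8 serine, glycine and one-carbon genes (median 0.41) or of 12 tRNA synthetases (median 0.45). Of these, 4 of 8 and 8 of 12 had an unadjusted p under 0.05 (limma). *Cebpb* was called lower (-1.34). *Gdf15*, which codes for a secreted stress factor, was called higher in all 6 comparisons of the siRNA and inhibitor experiments other than TSA and the interactions. It was listed at 0 and at 0.0889 FPKM in Ctrl, so that its fold changes depend on the pseudocount. It was at 0.0696 and 0.140 FPKM in siCtrl, at 5.81 and 5.09 FPKM in siDnmt1 and at 9.38 and 10.1 FPKM in 4OHT siDnmt1. With TSA, 4 of 8 serine, glycine and one-carbon genes were called lower (background, 12.9%), led by *Mthfd1l* (-2.79) and *Shmt2* (-2.07), and 1 of 8 higher (background, 18.6%), *Gldc* of the glycine cleavage system (4.45), the largest change of that list. Of the 5 partner bZIP factors tested, *Cebpb* (-1.80) and *Nupr1* (-1.57) were called lower and *Atf3* was called higher (2.54), at 144 and 70.1 FPKM against 17.4 and 17.0 FPKM in Ctrl.

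**Figure D4:**
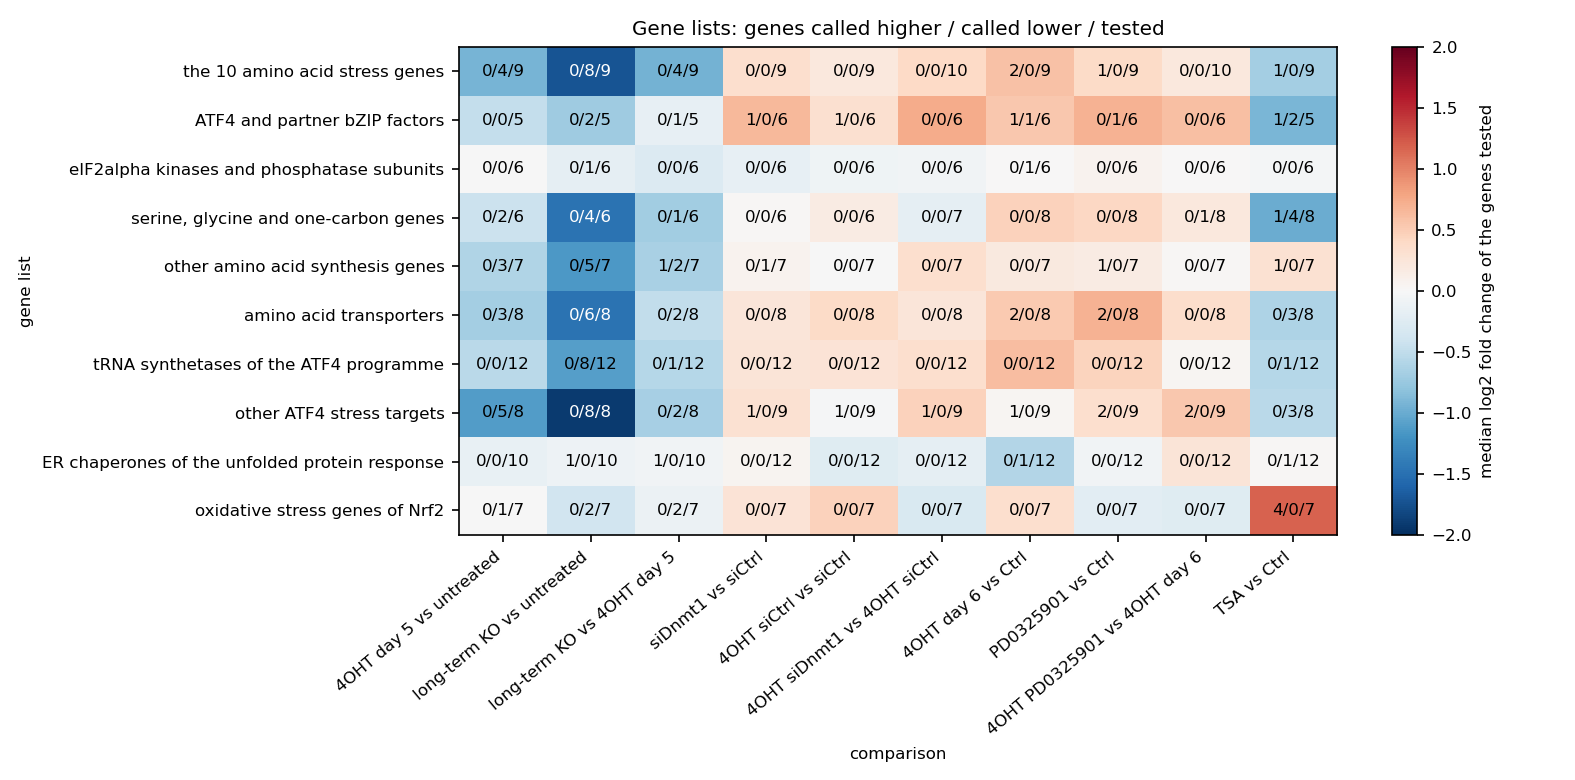
Median log2 fold change (colour) of the 10 genes and 9 related lists (rows) in 10 comparisons (columns), with the number called higher, called lower and tested in each cell. The lists of amino acid synthesis, transport and tRNA charging are negative in long-term KO, with 8 of 12 tRNA synthetases called lower (background, 6.09%). The ER chaperone list stays near 0 there with 1 of 10 called higher (background, 7.78%).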

How the data were processed

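Per the labels and the study's methods, TopHat2 2.0.12 placed reads on mm9, with 1 position for a read with several hits, and Cufflinks gave a value per RefSeq locus and library. The deposited values are these FPKM, made by the authors, so no count test was used. Loci of the total RNA tables carry no names and were assigned by position, where at least 95% of the gene lay in the locus. A locus over several separate genes was treated as missing. Tables of the authors' own Cuffdiff comparisons (fold changes and p-values) were left out.

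The log2(FPKM + 0.1) values of each experiment, all groups together, went into limma 3.58.1 (R 4.3.3) with trended variances and two-sided tests. Genes needed 1 FPKM or more in 3 total RNA or 2 other libraries, and p-values were Benjamini-Hochberg adjusted over all of them. A lone 0 in a group otherwise at 1 FPKM or more was treated as missing, and a comparison with a group listed at 0 throughout was not made. Fold changes are on this scale and are understated for low genes. Genes were called at an adjusted p under 0.05 and at least 2-fold. Depth was computed from the deposited intervals of single-exon genes of at least 3000 bases and bounds what can be seen in low genes. The fit was tested on simulated data. The 10 genes are named throughout. From other lists, up to 3 called genes with the largest change in a comparison are named, with *Psph*, *Atf3*, *Atf5*, *Ppp1r15a* and the eIF2α kinases wherever measured and the 5 genes most like the mean profile. *Shmt2* and *Gdf15* levels, *Krt8*, *Krt18*, *Epcam*, *Cd68* and other single markers were chosen after their values were seen. The members, the lists and the interaction of day 5 and day 6 were chosen with earlier results of these data known. Same-numbered replicates were not treated as pairs. Alternatives covered the pseudocount, filter, scaling, zeros, groups in the fit, replicate block, variance trend, call rule, joined loci and left-out libraries. Python 3.11.15 was used for other steps, with pandas 2.3.3 and matplotlib 3.10.9. The header of PD0325901 replicate 2 names 4OHT PD0325901 replicate 2 in its title line and PD0325901 replicate 2 in its description. Its label was followed.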

Additional observations from a re-analysis of the deposited data

Results flagged for a closer look

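The effect of 4OHT differed between the total RNA experiment at day 5 and the inhibitor experiment at day 6 for 6 of 9 genes (background, 4.1% of 10327 genes). This was by the interaction test of the difference itself, which was added after the values had been seen. The log2 differences, day 5 minus day 6, were -1.29 for *Atf4*, -1.86 for *Asns*, -2.59 for *Chac1*, -3.28 for *Trib3*, -1.88 for *Slc7a11* and -1.70 for *Mthfd2*. All 3 day 5 libraries were below every untreated library for these genes, and both day 6 libraries were above both Ctrl libraries. The share of all genes that separate in this way was not computed, so this is a description. Day, library type, read type and culture cannot be told apart here. No group held 4 libraries or more, so no library was tested as an outlier.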

How the results depend on the processing

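Called at the adjusted p alone, the members counted are given beside the share of all genes passing in either direction. They were 9 at day 5 (36.4%), 9 between day 5 and long-term KO (67%) and 2 for 4OHT siCtrl (14.8%). They were 7 at day 6 (26.4%), 3 for PD0325901 (14.5%), 6 for TSA (56.6%) and 1 for PD0325901 on top of 4OHT (7.5%). For the other alternatives the share over all genes is not given here, so those counts only describe how the calls moved. With every 0 used as listed, *Ddit3* entered and 4OHT siCtrl had 1 call and TSA 2. Without the low-value filter, day 6 had 1 call (*Trib3*) and TSA 0 (more genes are then tested). Fitting only the groups compared left 1 at day 6 (*Trib3*), and median-ratio scaling gave 2 for PD0325901 (*Asns* and *Trib3*). Other causes were not tested. Leaving out 1 library at a time gave 0 to 6 calls for 4OHT siDnmt1 against 4OHT siCtrl and 0 to 4 for the 4OHT by siDnmt1 interaction (highest without 4OHT siCtrl replicate 1), 0 to 3 for 4OHT siCtrl against siCtrl (highest without its replicate 2), 1 to 3 at day 6 (1 without Ctrl replicate 1, Ctrl replicate 2 or day 6 replicate 2), 1 to 2 for PD0325901 (2 without its replicate 2), 0 to 1 for TSA and 0 to 1 for PD0325901 on top of 4OHT (1 without day 6 replicate 2). Long-term KO against untreated had 7 to 9 calls under all alternatives, and the day 5 minus day 6 difference 5 to 9. Of the members' single fold changes under the alternatives, 2235 kept direction and side of the threshold, 71 kept direction but missed it, 47 kept direction and passed it, and 40 turned around. The 40 were of 29 fold changes of which 0 passed the adjusted p as reported, and 21 of them came with a 4OHT siCtrl library left out, and the cause was not tested. Against siCtrl, siDnmt1 gave 0.065 and 0.073 for *Slc7a11* with median-ratio scaling and quantile normalization, and the 4OHT by siDnmt1 interaction gave 0.22 for *Atf4* with joined loci used. With 1 library left out, the fold changes that turned around ranged as follows. For siDnmt1 against siCtrl they were -0.10 to 0.046 (*Slc7a11*), -0.064 to 0.17 (*Phgdh*) and -0.027 to 0.061 (*Psat1*). For 4OHT siCtrl against siCtrl they were -0.35 to 0.22 (*Slc7a11*), -0.84 to 1.27 (*Asns*), -0.52 to 2.06 (*Chac1*), -0.57 to 0.89 (*Mthfd2*), -0.34 to 0.57 (*Phgdh*), -0.71 to 2.04 (*Trib3*) and -0.37 to 0.69 (*Ddit4*). For 4OHT siDnmt1 against 4OHT siCtrl they were -0.34 to 0.23 (*Slc7a11*), -0.21 to 1.91 (*Asns*), -0.075 to 2.5 (*Chac1*), -0.28 to 1.32 (*Ddit3*), -0.19 to 1.27 (*Mthfd2*), -0.19 to 0.72 (*Phgdh*) and -0.11 to 2.63 (*Trib3*). For the 4OHT by siDnmt1 interaction they were -0.31 to 0.26 (*Slc7a11*), -0.83 to 1.29 (*Asns*), -0.76 to 1.81 (*Chac1*), -1.02 to 0.042 (*Ddit4*), -0.59 to 0.87 (*Mthfd2*), -0.24 to 0.67 (*Phgdh*) and -1.10 to 1.65 (*Trib3*). In the inhibitor experiment they were -0.78 to 0.049 for *Ddit4* with PD0325901, -0.12 to 0.27 (*Psat1*) and -0.15 to 0.11 (*Phgdh*) for PD0325901 on top of 4OHT, and -0.70 to 0.48 for *Chac1* in the 4OHT by PD0325901 interaction. Scaling moved the median of all genes by more than 0.1 (log2) only in the 4OHT by PD0325901 interaction (-0.12).

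Same-numbered libraries did not deviate together in every pair, with correlations of -0.18 to 0.06 in total RNA and -0.09 to 0.12 in siRNA libraries. Of the total RNA libraries, 0 of 9 correlated best with their own number. In the inhibitor experiment PD0325901, 4OHT day 6 and 4OHT PD0325901 deviated together by number (0.34, 0.35 and 0.55), and pairs with Ctrl or TSA did not (0.02 to 0.06). The main fit did not take the numbers to pair samples, although those 3 groups may be paired. With the replicate number as a block, the calls were 4 at day 5, 8 in long-term KO against untreated, 4 against day 5, 2 at day 6, 1 for PD0325901, 1 for TSA and 0 in the other comparisons of these experiments, as without the block. Depth limits *Slc7a11* in long-term KO and *Fgf21* and *Gdf15* most, since their FPKM are low.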

Other observations

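The genes of the oxidative stress factor Nrf2, which share *Slc7a11* with the amino acid stress genes, were counted as a separate list. With TSA, 4 of 7 were called higher, *Srxn1* (log2 fold change 2.93), *Txnrd1* (1.48), *Gclc* (1.32) and *Nqo1* (1.18), while *Slc7a11* was lower (-0.73). In long-term KO 2 of 7 were called lower, *Slc7a11* (-3.05) and *Hmox1* (-1.18), beside 6.09% of all genes, with a list median of -0.38. The share of genes called higher with TSA was 18.6% over all genes.

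Among list genes with a RefSeq promoter, TGATGNAA was found in 5 of 9 tRNA synthetases (*Aars*, *Gars*, *Iars*, *Tars* and *Yars*). It was also in 3 of 6 partner bZIP factors (*Atf3*, *Jdp2* and *Nupr1*) and 3 of 8 other Atf4 targets (*Fgf21*, *Herpud1* and *Vldlr*). Other synthesis genes had it in 2 of 6 (*Got1* and *Pycr1*), transporters in 1 of 5 (*Slc1a4*) and Nrf2 genes in 1 of 5 (*Slc7a11*). It was in 0 of 11 ER chaperones, 0 of 7 serine, glycine and one-carbon genes and 0 of 6 eIF2α kinases and phosphatase subunits. This is a description, beside 4.51% of all genes.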
